A study of Mus musculus with 12 samples.

Results

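The genes described here are 10 components of the Wnt pathway: the receptor Lgr4, the receptor-removing ubiquitin ligases Rnf43 and Znrf3, the feedback inhibitors Axin2, Nkd1 and Notum, the DNA-binding factors Tcf7, Lef1 and Tcf7l2, and the cyclin gene Ccnd1. Their chromatin was profiled in mouse intestinal organoids, which are grown from crypts, by CUT&RUN, an assay that cuts out and sequences the DNA next to an antibody. The antibody recognised H3K27ac, the acetylated lysine 27 of histone H3, which is found at promoters and enhancers in use. An interval called by the peak caller SEACR was a member when its nearest protein-coding gene, measured to the gene span and within 50 kb, was one of the 10. This rule found 165 of 166517 intervals, belonging to 9 of the 10 genes; 107 of them overlapped the gene span and 58 lay outside it. Notum had none: the nearest interval of any gene lay 7006 bp from it and was closer to another gene.

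The 12 libraries came from 6 groups of 2. Wild-type (WT) organoids received vehicle, arachidonic acid (AA) at 25 µM or prostaglandin E2 (PGE2) at 50 nM, and organoids lacking Ptger4 (KO) received the same 3 additions. Cells convert AA, a membrane fatty acid, into PGE2 and other lipid signals. EP4, the product of Ptger4, is one of the receptors for PGE2. The sample records give day 3 for all groups, whereas the treatment protocol gives 6 days, and the design text names a dimethyl form of PGE2. All groups, vehicle included, grew in Matrigel with R-spondin at 62.5 ng/ml and the GSK3 inhibitor CHIR-99021 at 5 µM, which both raise Wnt signalling, and with EGF at 40 ng/ml, Noggin at 50 ng/ml and the kinase inhibitor Y-27632. The labels do not say whether the Ptger4 allele was lost in all cells or under a tissue-specific Cre, nor whether libraries of the same group represent separate animals or cultures, so p-values measure only the spread between these libraries. Age was not given in the sources used here.

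In the intestinal crypt, Wnt ligands bind Frizzled receptors and Lrp5 or Lrp6, which halts the destruction of β-catenin by a complex built on Axin and Apc. β-Catenin then joins TCF and LEF proteins on DNA and switches on targets that keep stem cells dividing. Rnf43 and Znrf3 mark Frizzled for removal, and R-spondin bound to Lgr4 or its relatives takes these ligases off the surface. Axin2, Nkd1, Notum, Rnf43 and Znrf3 are themselves Wnt targets, which makes them a negative feedback loop.

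The deposited value is a peak score per interval and library, read here as an average signal over the interval. Library medians ran from 0.0941 to 0.122, the lowest in the second KO PGE2 library, and the mean score of an interval had a median of 0.118 and a 99th percentile of 0.227. The intestinal label was checked on marker genes at each gene's strongest interval. All 11 epithelial markers had an interval, with a median level of 0.240, against 0.128 for 4 of 6 fibroblast markers, 0.134 for 4 of 5 immune markers and 0.144 for 4 of 4 endothelial markers. Col1a2, Col3a1 and Cd68 had no interval. Single markers overlapped between the classes. The immune marker Itgam (0.207) and the endothelial marker Tek (0.210) exceeded the epithelial markers Cdh1 (0.199), Lgr5 (0.169) and Olfm4 (0.136). The epithelial marker scores summed to 2.31 to 2.87 in the WT libraries and 1.63 to 2.42 in the KO libraries, and the endothelial ones to 0.639 to 0.756 and 0.394 to 0.585. The fibroblast sums overlapped, at 0.436 to 0.710 and 0.452 to 0.654. In bulk chromatin, fewer cells carrying the mark and less of it per cell cannot be told apart.

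The promoters on which the account turns are shown first. Each window runs from 250 bases before to 50 bases after a RefSeq start on the GRCm38.p6 build, plus strand, with the 50 bases from the start site on in capitals. Rnf43 has 2 RefSeq starts, and each lay inside an H3K27ac interval: the first window is chr11:87662837-87663136, and the second, inside the gene and within its strongest interval, is chr11:87699647-87699946. The Lgr4 window, chr2:109917397-109917696, lies within that gene's strongest interval, and the Axin2 window, chr11:108920099-108920398, lies within an interval of modest score.
Rnf43 first start: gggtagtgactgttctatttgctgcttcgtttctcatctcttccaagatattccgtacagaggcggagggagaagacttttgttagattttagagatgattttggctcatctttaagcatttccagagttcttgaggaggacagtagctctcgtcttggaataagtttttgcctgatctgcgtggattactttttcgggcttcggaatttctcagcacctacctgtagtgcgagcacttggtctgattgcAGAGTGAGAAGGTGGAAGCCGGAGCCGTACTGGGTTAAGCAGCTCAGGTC
Rnf43 second start: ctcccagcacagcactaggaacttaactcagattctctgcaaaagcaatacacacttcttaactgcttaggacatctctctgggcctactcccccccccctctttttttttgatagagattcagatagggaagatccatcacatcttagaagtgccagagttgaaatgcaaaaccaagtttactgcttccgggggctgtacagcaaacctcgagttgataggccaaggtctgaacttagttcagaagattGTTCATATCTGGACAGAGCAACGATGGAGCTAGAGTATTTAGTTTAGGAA
Lgr4: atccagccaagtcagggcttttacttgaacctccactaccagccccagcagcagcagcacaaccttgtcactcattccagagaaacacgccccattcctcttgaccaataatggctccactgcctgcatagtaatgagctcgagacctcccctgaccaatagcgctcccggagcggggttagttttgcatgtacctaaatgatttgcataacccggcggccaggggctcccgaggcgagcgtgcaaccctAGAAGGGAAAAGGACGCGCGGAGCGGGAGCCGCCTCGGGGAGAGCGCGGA
Axin2: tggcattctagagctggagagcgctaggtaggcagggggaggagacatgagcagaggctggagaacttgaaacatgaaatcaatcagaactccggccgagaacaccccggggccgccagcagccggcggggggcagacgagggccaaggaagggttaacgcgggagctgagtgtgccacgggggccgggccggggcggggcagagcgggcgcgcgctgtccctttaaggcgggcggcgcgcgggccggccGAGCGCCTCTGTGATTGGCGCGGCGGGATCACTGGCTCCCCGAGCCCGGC

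These windows differ in base composition. The Rnf43 windows hold 10 and 3 CpG dinucleotides, the Lgr4 window holds 18 and the Axin2 window 31, against a median of 16 over all 13271 RefSeq windows whose start lies in an interval. RefSeq windows were found for 7 of the 10 genes, 13 in all; Znrf3, Ccnd1 and Notum had none. Of the 13 starts, 6 lay in an interval, where 40.4% of all 32851 did. The remaining 7, of Lef1, Nkd1 and Tcf7, lay in no interval although their windows held 5 to 45 CpG dinucleotides. The TCF/LEF core CTTTGA was searched on both strands (as TCAAAG on the other). It occurred in 1 of the 13 member windows, an internal Lef1 start at chr3:131156044-131156343, with matches beginning 180 and 120 bases before the start; 16.0% of all windows held it.

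The genes differed widely in how much H3K27ac they carried. Znrf3, with 40 intervals, and Tcf7l2, with 56, had far more than the median of 4 intervals per gene. Lgr4 had 15, Axin2 14, Ccnd1 12, Lef1 11, Rnf43 9, Tcf7 6 and Nkd1 2. These counts were not adjusted for gene length, and Znrf3 and Tcf7l2 had the longest spans of these genes, 168.5 and 191.9 kb. Of their intervals, 35 and 34 overlapped the span. All intervals together covered 107.4 kb for Znrf3 and 154.7 kb for Tcf7l2. Those of Lgr4 covered 76.6 kb, with a span of 96.6 kb, and those of Rnf43 42.9 kb, with a span of 72.45 kb. Each gene was then represented by its strongest interval, the one with the highest mean over the 12 libraries. In that order Tcf7l2 came first at a mean score of 0.261 (percentile 98.1 among 17321 genes), followed by Lgr4 at 0.228 (percentile 93.5), Rnf43 at 0.221 (91.6), Axin2 at 0.210 (87.8), Ccnd1 at 0.209 (87.1), Znrf3 at 0.188 (74.9), Lef1 at 0.145 (40.4), Tcf7 at 0.120 (23.0) and Nkd1 at 0.0802 (4.91). The ranges over the 12 libraries overlapped between all neighbours in that order. A gene with more intervals has more chances of a high one. By the median of their intervals Rnf43 (0.175) and Lgr4 (0.163) led, with Tcf7l2 at 0.131 and Znrf3 at 0.127. Over all 165 intervals, 38 (23.0%) stood above the 90th percentile of all intervals and 5 (3.03%) above the 99th. Of those 5, 4 were assigned to Tcf7l2 and 1 to Lgr4. The Tcf7l2 ones included intervals 49990, 38549 and 7657 bp outside the gene span. The interval at 38549 bp holds the RefSeq starts of 4930552P12Rik and Gm41871. Wider intervals scored higher, with a Spearman rho of 0.502 over the members and 0.402 over all intervals, so level and width were not independent.

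**Figure D1:**
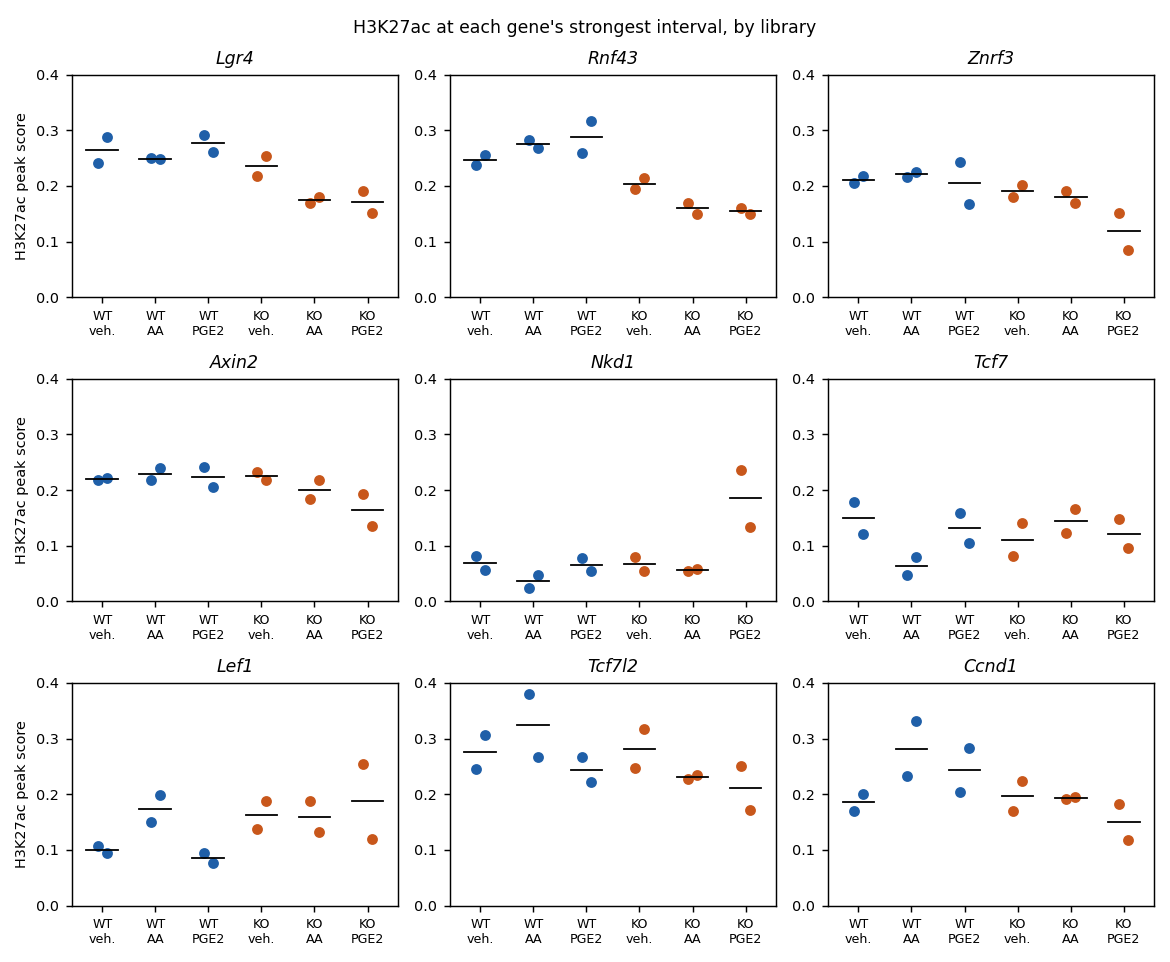
Peak score (linear axis, no unit) at the strongest interval of each of the 9 genes in the 12 libraries; each point is 1 library (replicate 1 left, replicate 2 right), each bar the mean of 2, blue WT and orange KO. The WT and KO libraries separate at Rnf43 and overlap at the other 8 genes.

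Lgr4, the R-spondin receptor, carried the mark along most of its length, with all 15 intervals overlapping the gene span. At its strongest interval, chr2:109916247-109924082, which holds the start, the WT scores were 0.240 and 0.287 in vehicle, 0.250 and 0.248 in AA and 0.291 and 0.262 in PGE2. The KO scores were 0.217 and 0.254 in vehicle, 0.170 and 0.180 in AA and 0.191 and 0.152 in PGE2. The 4 treated KO libraries were below all 6 WT libraries, whereas the vehicle KO libraries ran into the WT range.

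Rnf43, one of the ubiquitin ligases that remove Frizzled, had its strongest interval at chr11:87699341-87703356, around its second start. The WT scores there were 0.237 and 0.255 in vehicle, 0.283 and 0.269 in AA and 0.260 and 0.316 in PGE2. The KO scores were 0.194 and 0.214 in vehicle, 0.169 and 0.150 in AA and 0.161 and 0.149 in PGE2. The lowest WT library was above the highest KO library. The interval over the first start, chr11:87661710-87673810, scored 0.223 ± 0.0251 in WT and 0.159 ± 0.0256 in KO (SD, n = 6 each), and there the highest KO library, at 0.186, slightly exceeded the lowest WT library, at 0.185.

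Znrf3, the other ligase, scored 0.188 at chr11:5304598-5308905. Its WT libraries ran from 0.168 to 0.243 and its KO libraries from 0.0841 to 0.202, the lowest being the second KO PGE2 library. The groups overlapped.

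Axin2, a scaffold of the destruction complex, scored only 0.112 over its own start, at chr11:108919932-108922461, where the WT libraries ran from 0.111 to 0.140 and the KO libraries from 0.0465 to 0.161. Its strongest interval, chr11:108976227-108987191, lay 25444 bp from the gene span and holds the RefSeq start of Gm36876. There the WT libraries ran from 0.205 to 0.241 and the KO libraries from 0.135 to 0.233. Nkd1, an inhibitor that acts on Dishevelled, had its stronger interval 24819 bp from its span, at chr8:88495497-88496523. Its WT scores stayed between 0.0248 and 0.0816 and 4 KO scores between 0.0552 and 0.0805, while the KO PGE2 libraries read 0.237 and 0.134. The KO PGE2 pair was therefore the only one above the rest at that interval.

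Among the DNA-binding factors, Tcf7l2, the main TCF of the intestinal epithelium, had its strongest interval 49990 bp from the span, at chr19:55688366-55691807, with WT libraries from 0.222 to 0.380 and KO libraries from 0.173 to 0.316. An interval inside the gene, chr19:55859050-55868895, was nearly as strong at 0.260. Lef1 and Tcf7, which are best known from lymphocytes and are themselves Wnt targets, were weaker. The strongest Lef1 interval, chr3:131088853-131091010, scored 0.107 and 0.0941 in WT vehicle, 0.149 and 0.199 in WT AA and 0.0945 and 0.0767 in WT PGE2, and between 0.120 and 0.255 in the KO libraries. The strongest Tcf7 interval, chr11:52256939-52259080, scored 0.178 and 0.121 in WT vehicle, 0.0474 and 0.0794 in WT AA, 0.160 and 0.105 in WT PGE2, and between 0.0813 and 0.166 in the KO libraries. The 2 WT AA libraries were the lowest of all 12 at that Tcf7 interval and the highest of the WT libraries at the Lef1 one.

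Ccnd1 encodes cyclin D1, which drives entry into S phase. Its strongest interval, chr7:144968602-144974557, lay 28771 bp from the span and scored 0.170 and 0.201 in WT vehicle, 0.232 and 0.331 in WT AA and 0.205 and 0.282 in WT PGE2. The KO scores there were 0.171 and 0.224 in vehicle, 0.192 and 0.195 in AA and 0.182 and 0.118 in PGE2. The one interval on the Ccnd1 span, chr7:144937234-144943857, which crosses an end of it, scored 0.162 to 0.216 in WT and 0.0911 to 0.121 in KO, with no overlap.

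The first comparison asked whether AA or PGE2 altered H3K27ac at these genes in WT organoids. None of the 165 member intervals passed an adjusted p of 0.05 (limma, Benjamini-Hochberg over all 166471 intervals kept) for AA against vehicle, PGE2 against vehicle or AA against PGE2, and 0% of all intervals passed in each. At an unadjusted p under 0.05 the members numbered 5 (3.03%) for AA, 5 (3.03%) for PGE2 and 8 (4.85%) for AA against PGE2, next to 4.56%, 5.8% and 5.27% of all intervals. The median log2 change over the members was -0.05 for AA, -0.08 for PGE2 and 0.05 for AA against PGE2, and over all intervals -0.04, -0.03 and -0.0044. The standard error of 1 interval was 0.30 at the median over the members.

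The interval with the smallest p in each of these comparisons was as follows. For AA it was an Axin2 interval 44282 bp from the span, chr11:108995065-108997393, which scored 0.221 and 0.163 in WT vehicle and 0.0926 and 0.0727 in WT AA (log2 difference -0.82 ± 0.30 SE, limma adjusted p = 1.00). For PGE2 it was a Lef1 interval 40866 bp from the span, chr3:131068651-131069431, at 0.142 and 0.208 in vehicle and 0.0745 and 0.0140 in PGE2 (-1.24 ± 0.32, limma adjusted p = 0.759). For AA against PGE2 it was a Tcf7l2 interval, chr19:55725622-55726567, at 0.166 and 0.177 in AA and 0.0991 and 0.0220 in PGE2 (1.03 ± 0.35, limma adjusted p = 0.924). These intervals were picked by their p, and none passed after adjustment. Next by p were the strongest Tcf7 interval (-0.77 ± 0.31) and a Tcf7l2 interval, chr19:55814754-55815669 (0.73 ± 0.32), for AA. For PGE2 they were 2 intervals inside Tcf7l2, chr19:55811560-55813409 (0.80 ± 0.34) and chr19:55760622-55762593 (-0.64 ± 0.27). The first of these and the Lef1 interval followed again for AA against PGE2, at -1.0 ± 0.34 and 0.92 ± 0.32; the comparisons share libraries.

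**Figure D2:**
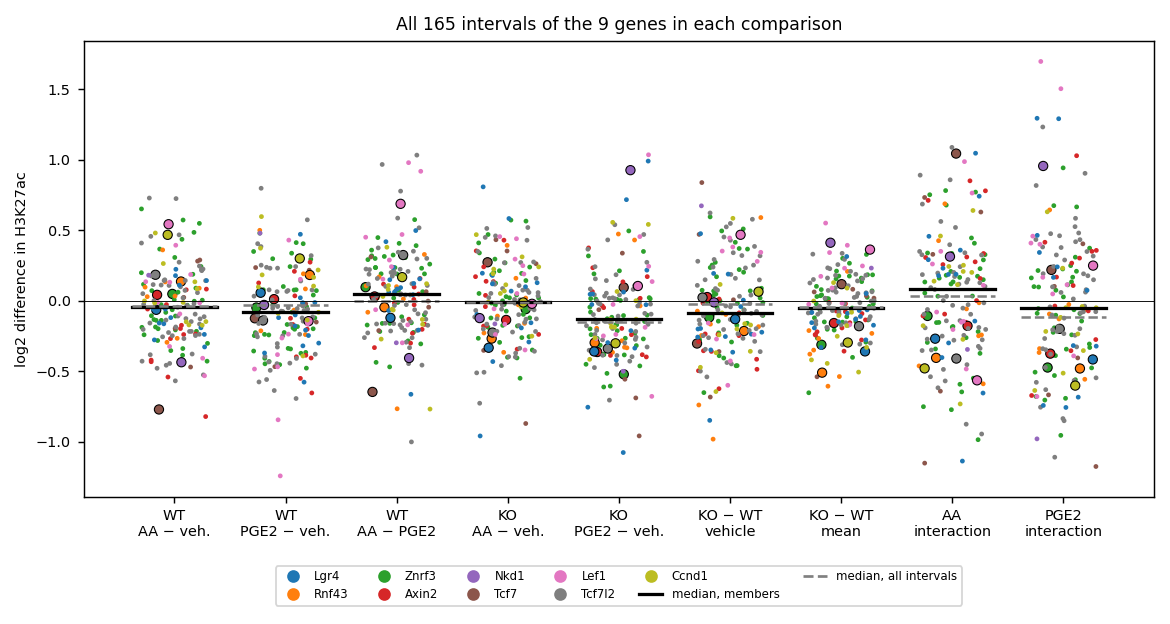
Log2 difference in H3K27ac (vertical axis) of all 165 member intervals in the 9 comparisons; each point is 1 interval coloured by gene, the large outlined points are the strongest intervals, black bars mark the member median and grey dashed bars the median of all intervals. No point passed an adjusted p of 0.05, and the member medians lay between -0.13 and 0.08.

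The same additions were compared in KO organoids, which lack EP4. Again 0 of 165 member intervals passed for AA or PGE2, with 0% of all intervals passing in each. At an unadjusted p under 0.05 there were 4 members (2.42%) for AA, against 3.74% of all intervals, and 12 (7.27%) for PGE2, against 8.68%. The PGE2 comparison leaned downwards at the members (107 of 165 lower, median -0.13) as it did everywhere (66.1% of all intervals lower, median -0.15). The second KO PGE2 library moved with this lean: its median over weighted gene means was 0.101, where the other 11 libraries ran from 0.125 to 0.134, and without it the member median was 0.01, against -0.30 without the first KO PGE2 library. The median was also -0.01 after quantile normalization, 0.0042 after centring on library medians and 0.06 after cyclic loess, so the downward lean did not hold under these settings.

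Within Lgr4, 2 intervals differed in opposite directions between the KO groups, without passing. At chr2:110000340-110002026 the KO scores were 0.218 and 0.222 in vehicle, 0.0837 and 0.0862 in AA and 0.0746 and 0.0729 in PGE2 (AA -0.96 ± 0.27, PGE2 -1.08 ± 0.27, limma adjusted p = 1.00 and 0.425). The KO vehicle libraries were more than 2-fold above the treated KO ones at this interval, which was picked by its p. Its WT scores ran from 0.0958 to 0.178, also below the KO vehicle pair. At chr2:109965422-109966322 the KO scores were 0.115 and 0.0338 in vehicle, 0.171 and 0.156 in AA and 0.193 and 0.193 in PGE2 (0.81 ± 0.29 and 0.99 ± 0.29). A neighbour, chr2:109966884-109971262, read 0.178 and 0.159 in vehicle and 0.0916 and 0.0624 in PGE2 (-0.76 ± 0.26). The AA and PGE2 comparisons share the vehicle libraries. The remaining interval named by its p was one inside Tcf7l2, chr19:55869447-55870275, for AA (-0.73 ± 0.30).

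Whether the treatment changes depended on genotype was tested by the interaction, the KO change minus the WT change. No member interval passed for AA or PGE2, as 0% of all intervals did. At an unadjusted p under 0.05 there were 10 members (6.06%) for AA and 9 (5.45%) for PGE2, next to 4.14% and 6.42% of all intervals. The smallest p for AA belonged to the Lgr4 interval at chr2:110000340-110002026 (-1.14 ± 0.38), followed by Lgr4 at chr2:109965422-109966322 (1.05 ± 0.42) and the strongest Tcf7 interval (1.05 ± 0.44). For PGE2 they were the Lef1 interval at chr3:131068651-131069431 (1.70 ± 0.46, limma adjusted p = 0.622), Lgr4 at chr2:109965422-109966322 (1.29 ± 0.42) and Tcf7l2 at chr19:55723066-55724493 (1.23 ± 0.48).

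The genotype comparison over the 3 treatments held the smallest limma adjusted p of any member interval. It sets 6 libraries against 6, with a median standard error of 0.175 over the members. Comparisons of 2 libraries with 2 had 0.304, so the comparisons differ in what they can detect. In vehicle alone, 0 of 165 passed, where 0.000601% of all intervals did, and 7 (4.24%) had an unadjusted p under 0.05, against 4.55%. The smallest p there were at the Lgr4 interval chr2:109965422-109966322 (-0.85 ± 0.29) and at Rnf43 intervals chr11:87722393-87723882 (-0.98 ± 0.35) and chr11:87674353-87676267 (-0.74 ± 0.28). Averaged over the 3 treatments, 0 of 165 passed, where 0.0427% of all intervals did. At an unadjusted p under 0.05 there were 19 (11.5%), against 9.11%; 15 of the 19 were lower in KO. The member median was -0.05, as was that of all intervals, and 96 of the 165 members (58.2%) were lower in KO, against 58.4% of all intervals.

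The Rnf43 interval over the second start had the smallest p of all 165. It scored 0.270 ± 0.0272 in WT and 0.173 ± 0.0260 in KO (SD, n = 6 each), a log2 difference of -0.51 ± 0.10 (SE) with a limma adjusted p of 0.0748, so it missed the threshold. In vehicle alone this interval differed by only -0.21 ± 0.18 (limma unadjusted p = 0.244). It passed when either KO PGE2 library was left out, at -0.52 with limma adjusted p = 0.00765 without the first and -0.50 with adjusted p = 0.0383 without the second. The share of all intervals passing was then 0.89% and 0.0895%. Lgr4 at its start differed by -0.36 ± 0.10 (limma adjusted p = 0.247), and over all alternatives by -0.43 to -0.16. Without the first KO PGE2 library the Lgr4 difference was -0.40. That fit rests on the second KO PGE2 library, which had the lowest median of all libraries. The next smallest p belonged to a second Rnf43 interval, chr11:87674353-87676267, with WT libraries from 0.114 to 0.269 and KO libraries from 0.0589 to 0.141 (-0.61 ± 0.16, limma adjusted p = 0.192), and to the Ccnd1 interval on the gene span (-0.51 ± 0.14, limma adjusted p = 0.234).

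The difference at Rnf43 extended along the gene. Of its 9 intervals, 8 scored lower in KO, with a median of -0.35, and 5 of the 9 had an unadjusted p under 0.05. The exception to the lower scores was the interval at the far end of the span, chr11:87735228-87737229, at 0.128 in WT and 0.162 in KO. Over all intervals 58.4% were lower and 9.11% had such a p. At the strongest intervals of all genes these shares were larger, 70.7% and 17.8%. Rnf43 intervals were strong for the most part, with a median score of 0.175 against 0.118 over all intervals. The mean of the 9 intervals in each library, weighted by interval width, a summary chosen after seeing the data, was 0.190 to 0.223 in the WT libraries and 0.113 to 0.172 in the KO libraries, with no overlap (-0.33 ± 0.07, limma adjusted p = 0.107 over 17321 genes). On this weighted mean the vehicle pairs read 0.190 and 0.214 in WT and 0.168 and 0.172 in KO. The plain mean of the 9 intervals was 0.186 to 0.204 in WT and 0.108 to 0.164 in KO, also without overlap, with vehicle pairs of 0.189 and 0.186 in WT and 0.149 and 0.162 in KO. On the plain mean Lef1 was without overlap too, with KO higher: 0.0576 to 0.11078 in WT and 0.11083 to 0.126 in KO. The weighted means of Lef1 overlapped, at 0.0636 to 0.122 in WT and 0.101 to 0.131 in KO.

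**Figure D3:**
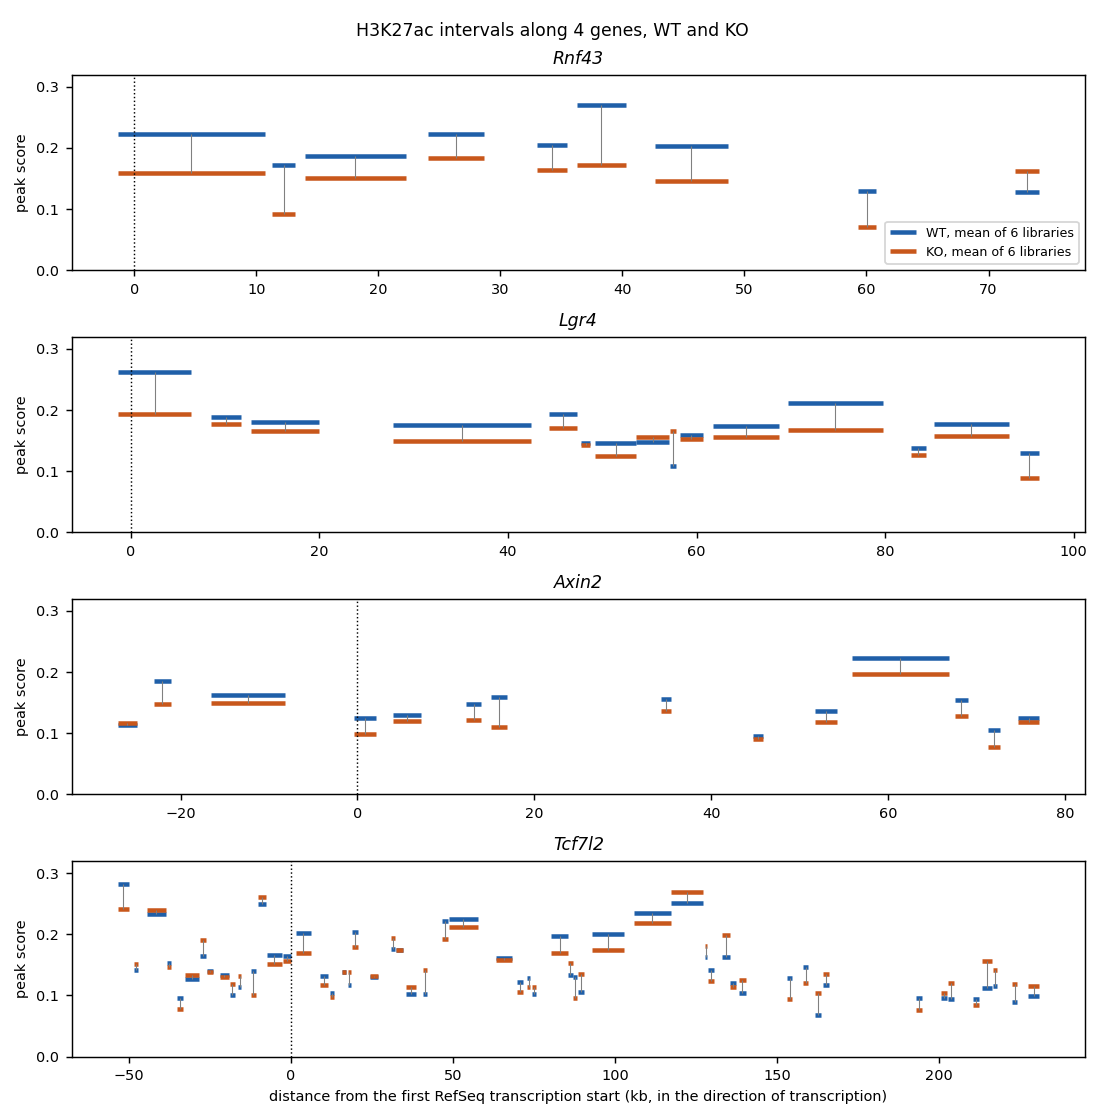
Mean peak score (vertical axis) of each interval along Rnf43, Lgr4, Axin2 and Tcf7l2 against distance from the first RefSeq start in kb (dotted line at 0); each bar spans 1 interval, blue the mean of 6 WT libraries and orange that of 6 KO libraries. The fitted log2 difference is negative at 8 of 9 Rnf43 intervals, 13 of 15 at Lgr4, 14 of 14 at Axin2 and 28 of 56 at Tcf7l2; at the leftmost Axin2 interval the plotted means, 0.114 in WT and 0.117 in KO, go the other way.

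Axin2, Lgr4 and Ccnd1 leaned the same way with smaller differences. All 14 Axin2 intervals had a negative log2 difference, with a median of -0.16, but only 1 had an unadjusted p under 0.05, and the strongest, at -0.16 ± 0.11, turned to 0.02 after cyclic loess normalization. Lgr4 was lower at 13 of 15 (median -0.13) and Ccnd1 at 10 of 12 (median -0.21), beside the 58.4% of all intervals that were lower. Intervals of 1 gene are not independent, and over all members the share lower was that of the background. The width-weighted gene means differed by -0.14 ± 0.07 for Axin2, -0.17 ± 0.07 for Lgr4 and -0.20 ± 0.07 for Ccnd1, where the median of all genes was -0.07. Lef1 and Nkd1 leaned the other way. Lef1 was higher at 8 of 11 intervals (median 0.23; 0.36 ± 0.16 at the strongest) and Nkd1 at both of its 2 (0.41 ± 0.23 at the stronger). Tcf7 was higher at 5 of 6, with a weighted gene mean difference of -0.03, and Znrf3 and Tcf7l2 split almost evenly, at 21 of 40 and 28 of 56 higher. None of these gene differences passed, with limma adjusted p for the gene means from 0.107 upwards.

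**Figure D4:**
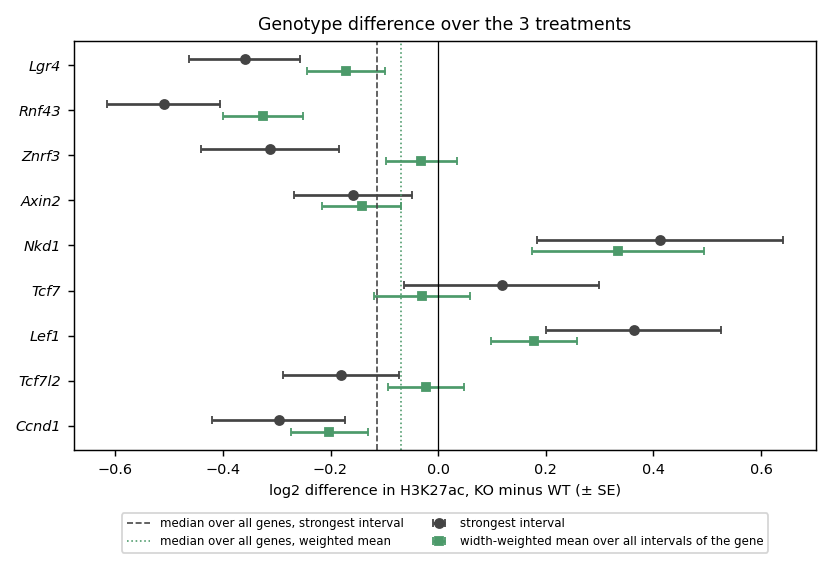
Log2 difference in H3K27ac, KO minus WT over the 3 treatments (horizontal axis), with standard errors; circles are each gene's strongest interval and squares the width-weighted mean over all its intervals, and the vertical lines mark the medians over all genes, -0.11 (dashed) and -0.07 (dotted). Rnf43 lies farthest to the left on both measures, and Lef1 and Nkd1 lie to the right of 0.

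The WT and KO libraries did not overlap at 3 member intervals (1.82%), all lower in KO, where 0.559% of all intervals were separate in that direction. They were Rnf43 at chr11:87677099-87685313 and chr11:87699341-87703356, and Ccnd1 at chr7:144937234-144943857. None was separate with KO higher, where 0.125% of all intervals were. The strongest intervals of all genes also leaned downwards in KO (70.7% lower, median -0.11), as did the summed epithelial markers, and the part of either in the Rnf43 difference was not tested. Of the 11 epithelial markers, the crypt stem cell genes Lgr5 (0.156 in WT, 0.183 in KO) and Olfm4 (0.126 and 0.147) were higher in KO and the other 9 lower.

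Among themselves the strongest intervals of the 9 genes did not follow one course over the 12 libraries. After each library's median over genes was subtracted, the 36 pairs had correlations from -0.73 to 0.83, with a median of 0.06. The highest belonged to Lgr4 with Rnf43, at 0.83, and the lowest to Nkd1 with Znrf3, at -0.73. The points of each correlation share libraries and groups. The 5 other genes nearest to the members' mean course were Anxa2 (Pearson's r of 0.93 over 12 libraries), Psg27 (0.90), Zcchc4 (0.90), Gm46353 (0.89) and Zbtb7a (0.89), picked as the highest of all genes.

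Of 69 other Wnt pathway genes, 64 had an interval, and none passed at its strongest interval in any of the 9 comparisons. Over the 3 treatments 38 were lower in KO (59.4%, against 70.7% of all genes) and 26 higher. Their median was -0.03, against -0.11 for all genes. By role, receptors were lower at 9 of 13, relay and destruction complex genes at 9 of 13, inhibitors at 6 of 10, nuclear partners at 5 of 8 and targets at 6 of 9, while ligands and their potentiators were higher at 8 of 11. The smallest p belonged to the Frizzled receptor gene Fzd5, 0.262 in WT and 0.161 in KO (-0.55 ± 0.12, limma adjusted p = 0.112), and to the kinase gene Csnk1a1, 0.350 and 0.273 (-0.31 ± 0.09, limma adjusted p = 0.254). These intervals lay 4174 and 33042 bp from the gene spans. In vehicle alone the smallest p belonged to the tankyrase gene Tnks (-0.58 ± 0.23), 8331 bp from its span, and to Sox9 (0.52 ± 0.26), a transcription factor gene active in the crypt.

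For PGE2 in WT, the target Myc (-0.72 ± 0.18) and the secreted inhibitor Sfrp5 (-0.78 ± 0.24) led without passing (limma adjusted p = 0.713 and 0.790). Their intervals lay 44414 and 11301 bp from the gene spans. In this comparison 8 of 9 targets and 7 of 8 nuclear partners were lower, while 8 of 13 receptors were higher, where 52.0% of all genes were lower. For AA in WT the ligand carrier gene Wls (-0.74 ± 0.20) and the ligand gene Wnt6 (-0.52 ± 0.23) led, and they led again for AA against PGE2 (-0.63 ± 0.20 and -0.71 ± 0.23). In KO organoids the receptor gene Fzd3 (-0.98 ± 0.29) and Tnks (0.64 ± 0.23) led for AA, and the kinase gene Gsk3a (-0.78 ± 0.25) and Sox9 (-0.81 ± 0.26) for PGE2, where 9 of 9 targets were lower along with 73.8% of all genes. The interactions were led by Tnks (0.98 ± 0.32) and the receptor gene Ryk (-0.88 ± 0.41) for AA, and by Sox9 (-1.07 ± 0.37) and the co-receptor gene Lrp5 (-0.68 ± 0.25) for PGE2.

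The 50 kb limit cut close to some of these loci. Just inside it lay the strongest Tcf7l2 interval, at 49990 bp, and a Ccnd1 interval at 49017 bp with a mean of 0.120. Just outside lay an Axin2 interval at 50214 bp with a mean of 0.112, 2 Ccnd1 intervals at 54581 and 55778 bp with means of 0.148 and 0.111, and a Tcf7l2 interval at 55673 bp with a mean of 0.132. An interval 59987 bp from Axin2, chr11:109010770-109012718, scored 0.455 in WT and 0.309 in KO, above the strongest interval that the rule gave to Axin2. Just outside the limit, both Axin2 intervals were lower in KO and those of Ccnd1, Tcf7l2 and Lef1 were all higher. The latter included Tcf7l2 at 57320 bp (0.0352 in WT, 0.0680 in KO) and Lef1 at 59636 bp (0.0781 and 0.124).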

How the data were processed

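The deposited file holds the authors' peak score, a signal value per interval and library, for intervals called with SEACR and MACS2 on mm10, per the submitters' processing notes. How reads were aligned and how the score was normalized is not given in the sources used here, and depth is unknown. No MACS2 interval was a member, so only SEACR intervals were used. File columns naming EP4KO and Control were read as Ptger4 KO and vehicle. Scores were analysed as log2(score + 0.0579), the pseudocount being the 10th percentile of non-zero values, for 166471 intervals above it in at least 2 libraries. limma 3.58.1 in R 4.3.3 (lmFit, eBayes with a trend, 6 groups in 1 model, 6 residual degrees of freedom, two-sided) was tested on simulated data first. Log2 differences are on the log2(score + pseudocount) scale and understate changes of the raw score at all intervals, most at low ones. Genes and promoters came from RefSeq on GRCm38.p6, which gives gene spans but no exons. Named intervals were each gene's strongest, the 3 with the smallest p in each comparison and, of the other pathway genes, 2; the intervals at the limit, those without overlap and width-weighted gene means were added. The members and lists were chosen with earlier results of these data known. Alternatives covered normalization, filters, pseudocounts, the variance trend, the replicate block and leaving out each library. The H3K27me3 and H3K4me3 profiles were not analysed here.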

Additional observations from a re-analysis of the deposited data

How the results depend on the processing

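The number of members passing stayed at 0 under all alternatives, in all 9 comparisons, except KO minus WT over the treatments: leaving out 1 library gave 0 to 2, with 2 (Rnf43 and Lgr4) without the first KO PGE2 library and 1 (Rnf43) without the second. Of the tests of named intervals and genes, 752 kept direction and side of the threshold and 3 changed sign. The rest came to pass, all in fits without a KO PGE2 library. They count the Rnf43 interval over the second start both as a named interval and as its gene's strongest. The sign changes were KO minus WT at the strongest intervals of Axin2 (0.0212) and Tcf7l2 (0.0488) after cyclic loess, and at Tcf7 (-0.0301) as a width-weighted gene mean, both alternatives chosen after seeing the data; the cause was not tested. Over all alternatives the Rnf43 difference ran from -0.61 to -0.31 and its limma adjusted p from 0.00765 to 0.541, and the Lgr4 difference from -0.43 to -0.16 and its p from 0.0338 to 0.662. Of the member medians, 10 values moved by more than the spread between replicates. The median ran from -0.30 to 0.06 for KO PGE2 against KO vehicle, from -0.23 to 0.12 for the PGE2 interaction, from -0.02 to 0.11 for the AA interaction, from -0.09 to 0.03 for KO minus WT over the treatments, from -0.08 to 0.02 for WT AA and from -0.03 to 0.04 for KO AA, and kept its sign in the other 3 comparisons. Replicate numbers did not pair the libraries (15 pairs of groups, correlations of deviations from -0.024 to 0.0097). With the replicate block, 0 members passed in each comparison, and over all intervals 56 instead of 71 passed for KO minus WT over the treatments and 4 instead of 0 for KO PGE2. With only the intervals above the median score, weaker named intervals were not tested. Depth is unknown, so its limits could not be given.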
